A study of Mus musculus with 6 samples.

Results

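The genes described here run the quality control of the endoplasmic reticulum (ER), the compartment where secreted and membrane proteins fold. They are 34 genes taken from a fixed list of symbols: the stress sensors and the transcription factor Xbp1, the chaperones, the disulfide-forming enzymes, the machinery of ER-associated degradation (ERAD) and 2 parts of the protein entry channel. All 34 were found among the 39179 gene identifiers of each count file, and all 34 passed the filter on low counts that left 14928 genes for testing. The libraries are polyA-selected RNA sequencing of mouse regulatory T cells (Tregs) made in culture from naive splenic CD4+ cells of wild-type C57BL/6 mice aged 6 weeks. Every culture ran for 3 days on plate-bound anti-CD3 (2 µg/ml, with the unit misprinted in the labels) with anti-CD28 (1 µg/ml), TGF-β1 (5 ng/ml) and IL-2 (40 ng/ml), so both groups share this activation. The groups were 3 libraries given DEL-1-Fc, a secreted integrin-binding protein joined to an antibody Fc part, and 3 given the Fc control. The labels give neither the dose of DEL-1-Fc nor whether replicates were separate animals or cultures, so p-values here reflect only library-to-library spread, possibly of technical origin.

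Unfolded protein in the ER is sensed by 3 membrane proteins. ATF6 (Atf6) is cut in the Golgi and its cytosolic part enters the nucleus as a transcription factor, IRE1α (Ern1) splices the Xbp1 mRNA into a form that encodes an active factor, and PERK (Eif2ak3) phosphorylates the translation factor eIF2α. ATF6 and spliced XBP1 raise the genes of chaperones, oxidoreductases and ERAD, which returns misfolded proteins to the cytosol for the proteasome. Lymphocytes enlarge this system when they are activated and begin to secrete. Counts per gene do not tell the spliced from the unspliced Xbp1 mRNA, and they say nothing of the cleavage of ATF6 or the phosphorylation of PERK.

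The element through which ATF6 acts, the ER stress response element (ERSE), is shown as a description. Members were picked by function and not by promoter sequence. Many belong to the classes that ATF6 raises, so a high share with an ERSE was likely beforehand and is no independent result. The search covered the 250 bases before each RefSeq start (GRCm38.p6), on both strands, for CCAAT and CCACG with 9 bases between them. The table holds a promoter for 30 of the 34 members (31 promoters, since Derl2 has 2 starts), and 10 members had at least 1 match, against 37 of 32851 promoters in all (0.113%). The 11 matches, since Hsp90b1 held 2, are printed below along the motif's own strand, with the fixed bases in capitals.
Calr (chr8:84847075-84847093): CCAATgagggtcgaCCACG
Canx (chr11:50325800-50325818): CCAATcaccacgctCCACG
Creld2 (chr15:88819520-88819538): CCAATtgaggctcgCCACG
Derl3 (chr10:75893242-75893260): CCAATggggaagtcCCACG
Dnajc3 (chr14:118937827-118937845): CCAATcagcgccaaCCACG
Ero1lb (chr13:12565682-12565700): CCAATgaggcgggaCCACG
Hsp90b1 (chr10:86705638-86705656): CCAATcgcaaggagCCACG
Hsp90b1 (chr10:86705533-86705551): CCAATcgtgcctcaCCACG
Hspa5 (chr2:34772025-34772043): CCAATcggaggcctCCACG
Pdia6 (chr12:17266491-17266509): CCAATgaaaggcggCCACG
Syvn1 (chr19:6046532-6046550): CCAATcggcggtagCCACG
Herpud1 alone among the members held the shorter ERSE-II (ATTGG and CCACG with 1 base between), which occurred in 0.0304% of all promoters.
Herpud1 (chr8:94386377-94386387): ATTGGgCCACG
No member promoter held the UPRE core TGACGTGG (0.563% of all promoters) or the cyclic AMP response element TGACGTCA (1.55%) in this window. The CCACG block alone, which lies inside every ERSE and ERSE-II, occurred in 22 members and in 28.3% of all promoters. A match is a string of letters in a window and is no measure of binding.

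**Figure D1:**
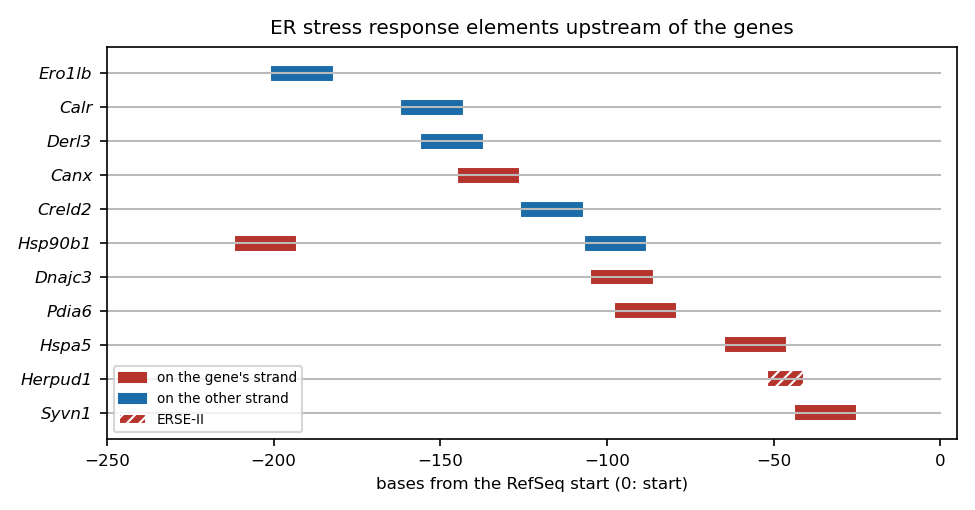
Position of each ERSE and ERSE-II match in bases before the RefSeq start (horizontal axis) for the 11 genes that held a match; colour gives the strand and hatching marks ERSE-II. Matches ran from 212 bases before the start in Hsp90b1 to 26 bases before it in Syvn1.

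Full upstream windows are printed for the 3 genes called in the results below that had a promoter in the table, Syvn1, Derl3 and Edem1, and for Canx as a member with an ERSE that was not called. They read 5′ to 3′ on the gene's strand, with ERSE matches in capitals, and none of these windows overlaps an exon of GENCODE M21.
Syvn1 (chr19:6046326-6046575, plus strand): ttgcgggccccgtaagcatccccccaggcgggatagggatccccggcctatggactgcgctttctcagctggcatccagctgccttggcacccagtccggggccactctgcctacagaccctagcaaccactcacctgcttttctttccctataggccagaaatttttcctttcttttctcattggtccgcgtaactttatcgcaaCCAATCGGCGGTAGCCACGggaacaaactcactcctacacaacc
Derl3 (chr10:75893148-75893397, plus strand): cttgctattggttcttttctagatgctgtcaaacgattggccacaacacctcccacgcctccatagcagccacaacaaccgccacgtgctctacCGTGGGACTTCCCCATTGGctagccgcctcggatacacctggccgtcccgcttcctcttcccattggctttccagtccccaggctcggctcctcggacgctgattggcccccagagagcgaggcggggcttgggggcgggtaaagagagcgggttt
Edem1 (chr6:108828391-108828640, plus strand): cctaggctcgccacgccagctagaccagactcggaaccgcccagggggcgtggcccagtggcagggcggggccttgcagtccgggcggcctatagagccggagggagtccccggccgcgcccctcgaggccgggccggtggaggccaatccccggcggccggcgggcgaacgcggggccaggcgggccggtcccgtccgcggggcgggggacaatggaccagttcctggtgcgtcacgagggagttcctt
Canx (chr11:50325674-50325923, minus strand): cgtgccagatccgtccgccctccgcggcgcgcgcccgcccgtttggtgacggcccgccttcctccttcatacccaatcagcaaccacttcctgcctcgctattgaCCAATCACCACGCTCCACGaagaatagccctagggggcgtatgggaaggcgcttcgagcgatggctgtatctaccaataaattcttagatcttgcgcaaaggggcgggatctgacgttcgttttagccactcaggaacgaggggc
The Edem1 window held no ERSE and was the richest in G and C of all member promoters (76%), while those of Syvn1 and Derl3 each held 1 ERSE, on opposite strands.

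Differences between the groups were small. Of the 34 members, 1 was called higher in DEL-1-Fc (Derl3, an ERAD channel protein) and 3 were called lower (Edem1 and Syvn1, both of ERAD, and Atf6), at an edgeR adjusted p under 0.05. That is 11.8% of the members, beside 12.6% of all genes tested, so the share called is near the background. All genes were called higher in 6.4% and lower in 6.22% of cases. The log2 fold change (DEL-1-Fc over Fc) was below 0 in 25 members (48.6% of all genes lay below 0) and above 0 in 9, with a median of -0.07 against 0.01 over all genes tested. In 13 members every DEL-1-Fc library lay below every Fc library (38.2%, against 17.5% of all genes) and in 3 members every one lay above (17.3% of all genes). For the 30 members not called, the 95% interval of the difference stayed within 1.5-fold either way in all 30. That bound is wider than the falls called, of 1.24-fold (Syvn1), 1.29-fold (Atf6) and 1.35-fold (Edem1), though not than the rise of Derl3 (1.56-fold). It therefore cannot show that uncalled members changed less than those called lower. As DEL-1-Fc over Fc, the interval ran from 0.695 to 0.93 in Edem3 and from 0.786 to 1.43 in Sec61b, both uncalled.

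**Figure D2:**
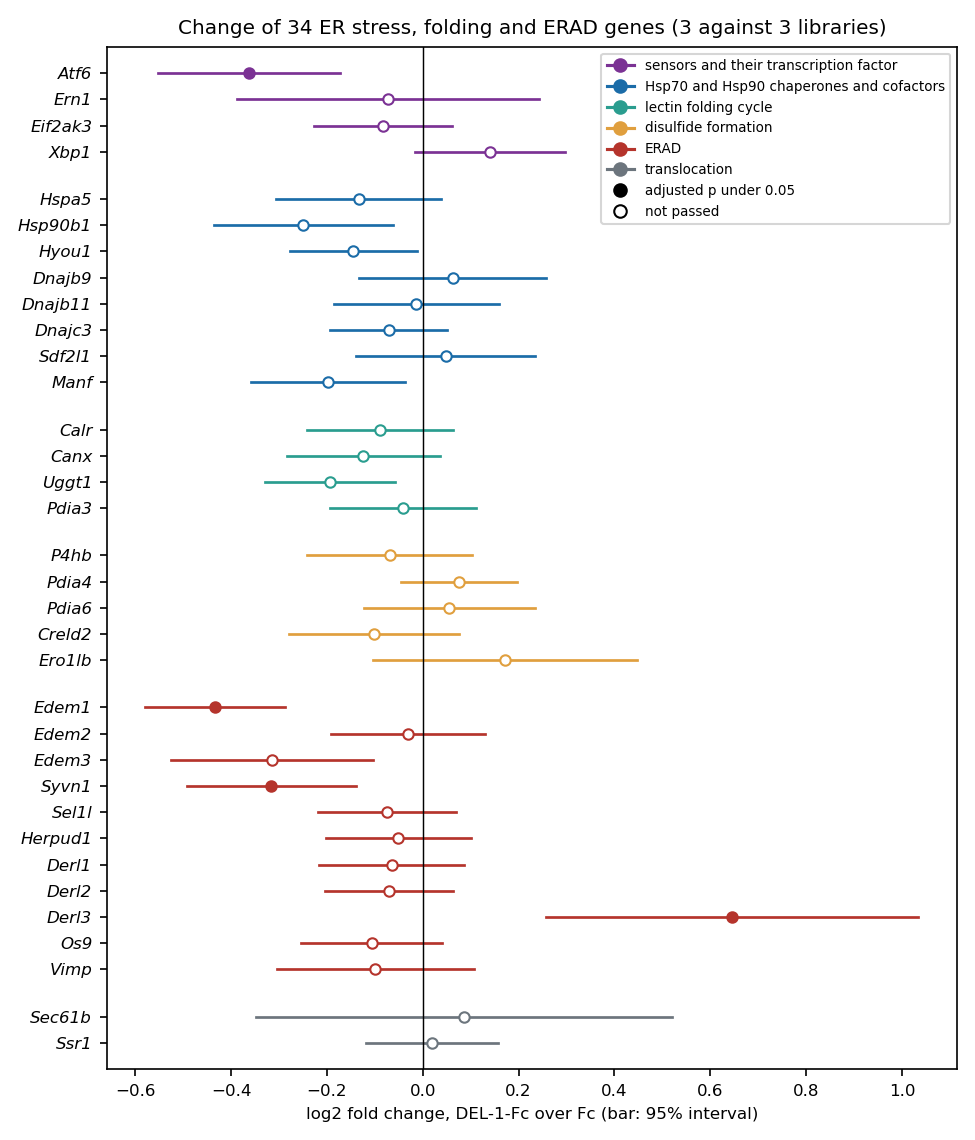
Log2 fold change of each of the 34 genes, DEL-1-Fc over Fc (horizontal axis), with its 95% interval as a bar, grouped by role; filled points passed an edgeR adjusted p under 0.05. Derl3 stands at the right at 0.65 and Edem1 at the left at -0.43, and most intervals cross 0.

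Library totals ran from 33364166 to 61967687 counts, with the lowest in DEL-1-Fc replicate 1. That library stood apart: principal component 1 (44% of the variance) separated the groups, and component 2 (23.3%) had it on one side with the Fc libraries and DEL-1-Fc replicates 2 and 3 on the other. All 5 Treg markers were detected. Their summed level in CPM (a gene's count scaled to its library's size) was 3564 to 3952 in Fc and 3601 to 4108 in DEL-1-Fc, most of it Il2ra. Foxp3, which defines Tregs, was higher in DEL-1-Fc (log2 fold change 0.54, edgeR adjusted p = 0.0165). Ctla4 went the other way, at 516, 517 and 540 CPM under Fc against 391, 422 and 461 CPM under DEL-1-Fc. The groups of Il2ra, Tnfrsf18 and Ikzf2 overlapped. Marker lists of other lineages were low but not all at 0. The 6 B cell markers summed to 5.78 to 6.89 CPM under Fc against 6.51 to 8.2 under DEL-1-Fc. Those of macrophages and monocytes, also 6, summed to 4.61 to 5.19 against 4.51 to 4.99, most of it Cd68. The CD8 T cell markers Cd8a and Cd8b1 summed to 10.1 to 10.4 CPM under Fc against 11.9 to 12.8 under DEL-1-Fc. Cd8a was higher in every DEL-1-Fc library (log2 fold change 0.78, edgeR adjusted p = 0.00607). The groups of Cd8b1, the more abundant of these markers, overlapped. Cd8b1 measured 7.91, 7.83 and 8.14 CPM under Fc against 9.2, 7.82 and 7.57 CPM under DEL-1-Fc. Of 5 dendritic cell markers 4 were detected, at 8.91 to 9.02 CPM against 6.51 to 7.06, nearly all of it Zbtb46. The NK cell, neutrophil and red cell lists each stayed at or below 0.183 CPM in every library, and the red cell gene Hba-a1 had 0, 1 and 0 counts under Fc against 6, 5 and 2 under DEL-1-Fc. Siglech, Ncr1, S100a8 and Hbb-bs, 1 from each of these last 4 lists, had 0 counts in every library, which allows up to 0.0914 CPM in the shallowest. The part of such cells in the results below was not tested. In bulk libraries such as these, fewer cells of a type and less RNA per cell cannot be told apart.

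Among the sensors, Atf6 was lower and the others did not pass. Atf6 measured 40.9, 40.2 and 38.4 CPM under Fc against 27.5, 33.7 and 31.6 CPM under DEL-1-Fc, in the order of replicates 1, 2 and 3, as in all such series of values here. All DEL-1-Fc libraries lay below all Fc libraries, and DEL-1-Fc replicate 1 was the lowest. Atf6 fell 1.29-fold, a log2 fold change of -0.36 with an SE of 0.0836 (adjusted p = 0.023). Atf6 (ENSMUSG00000026663) occupies chr1:170704674-170867771 of GRCm38 on the minus strand, and its exons overlap no other annotated gene. Atf6 no longer passed when Fc replicate 1, 2 or 3 was left out, with adjusted p of 0.112, 0.0914 and 0.0703, nor on omission of DEL-1-Fc replicate 3 (0.0623), and over the 16 alternative settings the adjusted p ran from 0.00179 to 0.112.

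Ern1 measured 10.9, 11.4 and 11 CPM under Fc against 8.2, 12.1 and 11.2 CPM under DEL-1-Fc. Its low mean in DEL-1-Fc came from replicate 1, while replicates 2 and 3 lay at or above the middle of the Fc range (log2 fold change -0.07, 95% interval -0.39 to 0.24, adjusted p = 0.779). Without that library its log2 fold change was 0.08. Eif2ak3 measured 25.6, 25.2 and 26.1 CPM under Fc against 23.7, 24.8 and 24.1 CPM under DEL-1-Fc, so the groups did not overlap, yet the difference was small (-0.08, adjusted p = 0.442). Xbp1 went the other way: it measured 222, 242 and 249 CPM under Fc against 276, 260 and 251 CPM under DEL-1-Fc. The highest Fc and the lowest DEL-1-Fc library nearly touched, and Xbp1 did not pass (0.14, 95% interval -0.02 to 0.30, adjusted p = 0.232). The same direction held for Xbp1 in each alternative setting, where its adjusted p ran from 0.142 to 0.571.

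None of the 8 Hsp70 and Hsp90 chaperones and their cofactors was called. Hspa5, encoding BiP, the ER Hsp70 that also holds the sensors inactive, measured 840, 806 and 843 CPM under Fc against 812, 694 and 762 CPM under DEL-1-Fc. DEL-1-Fc replicate 1 fell inside the Fc range and the other two below it (log2 fold change -0.13, 95% interval -0.31 to 0.04, adjusted p = 0.298). Hsp90b1, encoding GRP94, the ER Hsp90 that folds integrins and Toll-like receptors, measured 806, 787 and 797 CPM under Fc against 599, 681 and 730 CPM under DEL-1-Fc. All DEL-1-Fc libraries were lower, but they spread widely (SD 66.4 CPM against 9.91 in Fc), and the log2 fold change of -0.25 did not pass (SE 0.0824, adjusted p = 0.0851). Some Hsp90b1 exon sequence overlaps 1810014B01Rik on the other strand, so part of its count is uncertain.

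Manf, a secreted ER-resident factor that binds BiP, measured 210, 222 and 221 CPM under Fc against 206, 176 and 186 CPM under DEL-1-Fc (log2 fold change -0.20, adjusted p = 0.11). Manf exons overlap 4930524O07Rik and Dcaf1 on the other strand (166 and 146 bases) and Rbm15b on the same strand (14 bases). Hyou1, the GRP170 exchange factor for BiP, measured 258, 248 and 246 CPM under Fc against 233, 226 and 221 CPM under DEL-1-Fc (-0.14, adjusted p = 0.148). In both genes the groups did not overlap, as was also so for Dnajc3, the p58IPK co-chaperone, at a log2 fold change of -0.07. The J-domain genes Dnajb11 (-0.01) and Dnajb9 (0.06), and Sdf2l1 (0.05), a partner of Dnajb11, had overlapping groups. Dnajb9 was low, at 10.8 to 12 CPM in Fc, and 11.3% of its 31-base words also occur in the predicted gene Gm6568.

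The lectin cycle holds glycoproteins on the chaperones calreticulin (Calr) and calnexin (Canx) until they fold, with Uggt1 as the enzyme that re-tags unfolded ones and Pdia3 as the attached disulfide isomerase. All 4 had log2 fold changes below 0 and none was called. Uggt1 came nearest: it measured 160, 161 and 161 CPM under Fc against 140, 148 and 133 CPM under DEL-1-Fc. The Fc libraries were nearly equal and all DEL-1-Fc libraries lower (log2 fold change -0.19, SE 0.06, adjusted p = 0.0691). Calr, the most abundant member, measured 1425, 1383 and 1349 CPM under Fc against 1348, 1296 and 1265 CPM under DEL-1-Fc. The lowest Fc and the highest DEL-1-Fc library nearly touched, and the log2 fold change was -0.09 (adjusted p = 0.438). Canx measured 689, 685 and 713 CPM under Fc against 600, 635 and 681 CPM under DEL-1-Fc (-0.12, adjusted p = 0.298), and Pdia3 gave -0.04 with overlapping groups.

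Disulfide formation had 0 of 5 genes called in either direction, and its genes stood on both sides of 0. Pdia4, a protein disulfide isomerase, measured 168, 166 and 169 CPM under Fc against 176, 175 and 179 CPM under DEL-1-Fc. The groups did not overlap and each varied by about 1% (CV 0.959% in Fc and 0.998% in DEL-1-Fc), with a log2 fold change of 0.08 (95% interval -0.04 to 0.20, adjusted p = 0.401). P4hb (-0.07), which encodes protein disulfide isomerase itself, Pdia6 (0.06) and Creld2 (-0.10), a secreted ER stress gene, had overlapping groups. Ero1lb, an oxidase that recharges the isomerases, was scarce at 5.81, 5.78 and 6.26 CPM under Fc against 7.16, 5.75 and 7.22 CPM under DEL-1-Fc (0.17, adjusted p = 0.403), and 16.2% of its 31-base words recur in the predicted gene Gm18562.

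ERAD held 3 of the 4 calls, 2 lower and 1 higher. That is 27.3% of its 11 genes, beside 12.6% of all genes tested, and it rests on 3 genes only. Edem1, which extracts misfolded glycoproteins from the lectin cycle by trimming their mannoses, measured 275, 268 and 276 CPM under Fc against 188, 210 and 208 CPM under DEL-1-Fc. The lowest Fc library exceeded the highest DEL-1-Fc library by a wide margin relative to the spread in either group. Edem1 fell 1.35-fold, a log2 fold change of -0.43 with an SE of 0.0643 (adjusted p = 0.00291). It was called in all 16 alternative settings, including each of the 6 omissions of a library, with adjusted p from 2.09e-08 to 0.0238. Edem1 (ENSMUSG00000030104) spans 108828641 to 108859356 on the plus strand of chromosome 6, overlaps no exon of another gene and shares no 31-base word with another gene.

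Syvn1, the HRD1 ubiquitin ligase at the centre of the ERAD channel, measured 111, 113 and 103 CPM under Fc against 86.1, 96.3 and 80.4 CPM under DEL-1-Fc. The groups did not overlap, and Syvn1 fell 1.24-fold, a log2 fold change of -0.32 with an SE of 0.078 (adjusted p = 0.0305). It no longer passed when Fc replicate 1, 2 or 3 was left out, with adjusted p of 0.132, 0.134 and 0.0668, on omission of DEL-1-Fc replicate 3 (0.0963) or with library sizes alone (0.0512), and the range over all settings was 0.00459 to 0.134. Syvn1 (ENSMUSG00000024807) lies on the plus strand of chromosome 19 from 6046576 to 6053712, where 91 exon bases overlap Mrpl49 on the other strand.

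Derl3, a derlin of secretory cells, was the least abundant member. It measured 1.13, 1.42 and 1.62 CPM under Fc against 2.16, 2.30 and 2.06 CPM under DEL-1-Fc, with a lowest count of 64 reads in a library. All DEL-1-Fc libraries were higher, and Derl3 rose 1.56-fold (log2 fold change 0.65, SE 0.172, adjusted p = 0.0405, 95% interval of the fold 1.19 to 2.05). The call was lost in each omission of a library except that of DEL-1-Fc replicate 1 (adjusted p = 0.0601 to 0.15) and with the replicate number as a block (0.0741). Derl3 (ENSMUSG00000009092) lies on the plus strand of chromosome 10 from 75893413 to 75895941. Because plasma cells are rich in Derl3, their markers are given beside it: all 7 of 7 were detected, and their sum, most of it Irf4 and Ighm, was 1413 to 1479 CPM in Fc and 1104 to 1291 CPM in DEL-1-Fc. These 2 genes moved in opposite directions: Irf4, which activated T cells also express, stood at 1060, 1094 and 1050 CPM under Fc against 622, 802 and 841 CPM under DEL-1-Fc (adjusted p = 0.018). Ighm, the immunoglobulin heavy chain µ gene, was higher in every DEL-1-Fc library, as Derl3 was, at 362, 381 and 360 CPM against 478, 448 and 447 CPM (adjusted p = 0.0124). None of the 7 was at 0 in all libraries, but the plasma cell genes Jchain, Mzb1 and Tnfrsf17 reached at most 0.135, 0.274 and 0.0506 CPM in any library. Mzb1 had 9, 6 and 5 counts under Fc against 9, 9 and 10 under DEL-1-Fc. Sdc1 and Prdm1 did not rise with Derl3, and their groups overlapped. Sdc1 measured 2.64, 1.52 and 1.75 CPM under Fc against 1.92, 1.66 and 1.77 CPM under DEL-1-Fc. Prdm1 measured 1.06, 1.5 and 1.09 CPM against 0.853, 0.743 and 1.11 CPM. The part of plasma cells in the Derl3 result was not tested.

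Edem3, a further mannosidase of this family, measured 53.1, 54.5 and 53.6 CPM under Fc against 36.7, 45.4 and 47.2 CPM under DEL-1-Fc. The groups did not overlap, but DEL-1-Fc replicate 1 stood far below the other two and Edem3 did not pass (log2 fold change -0.31, SE 0.0928, adjusted p = 0.0592). The remaining 7 ERAD genes had log2 fold changes from -0.11 to -0.03. They were Edem2 (-0.03), the HRD1 partner Sel1l (-0.07), Herpud1 (-0.05), which organises the HRD1 complex, Derl1 (-0.07), Derl2 (-0.07), the lectin Os9 (-0.11) and Vimp (-0.10), annotated as Selenos, a selenoprotein that recruits the ATPase p97. Among these, the groups of Derl2 did not overlap and those of the other 6 did. Derl2 shares 231 exon bases with Mis12 on the other strand.

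The translocation genes Sec61b, a channel subunit, and Ssr1, of the translocon-associated complex, were not called (log2 fold changes 0.09 and 0.02). Sec61b measured 65.3, 64.6 and 72.2 CPM under Fc against 91.1, 53 and 70.7 CPM under DEL-1-Fc. The DEL-1-Fc libraries spanned both sides of the Fc range, with the widest spread of the members (CV 26.6%). Of its 31-base words, 19.5% also occur in other annotated genes, Gm10320 and Gm5870.

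**Figure D3:**
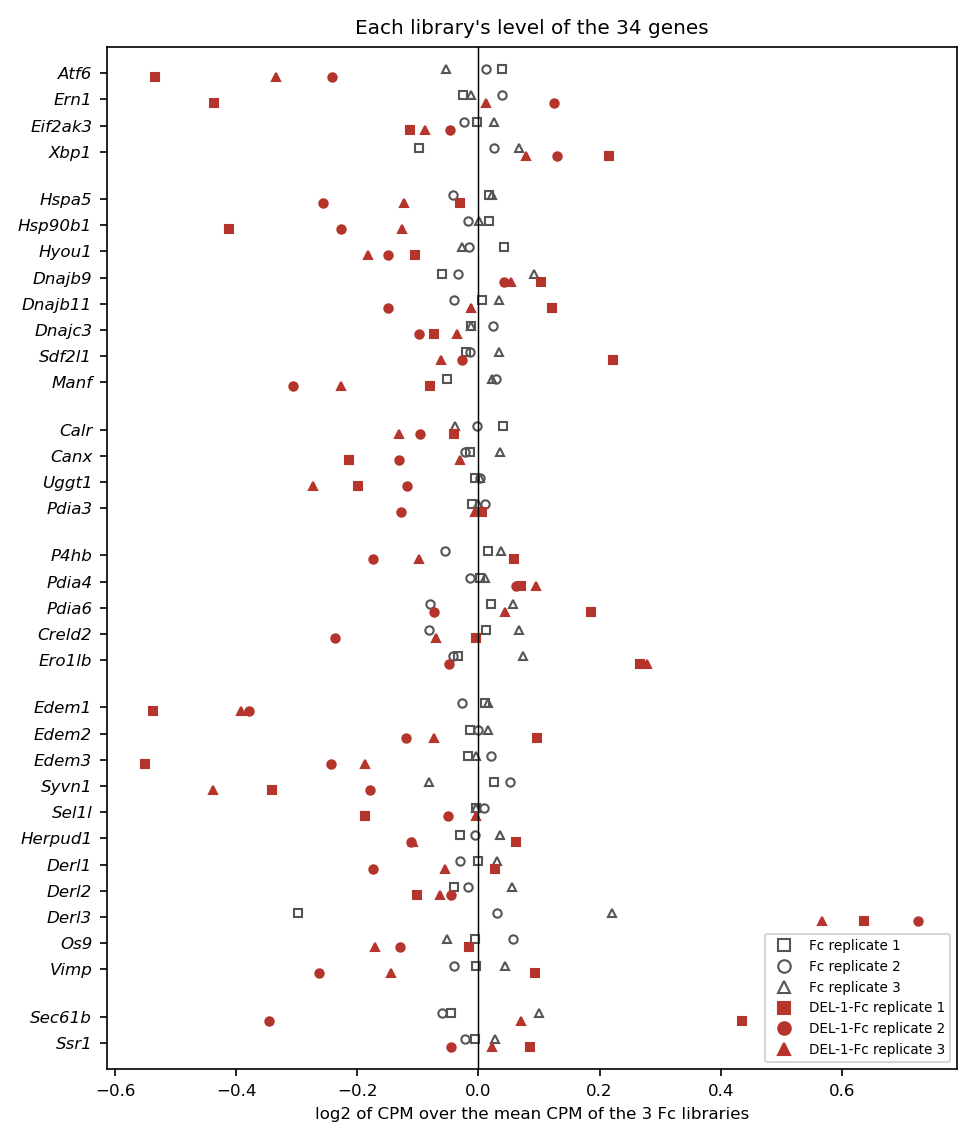
Level of each gene in each library as log2 of its CPM over the mean of the 3 Fc libraries (horizontal axis); open grey symbols are Fc, red symbols DEL-1-Fc, and the symbol shape gives the replicate. DEL-1-Fc replicate 1 (red squares) is often at an end of its group, as in Ern1, Edem3 and Sec61b.

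Spread was larger in DEL-1-Fc. The SD exceeded that of Fc in 29 of 34 members, and the median CV was 6.96% against 2.63%. DEL-1-Fc replicate 1 was the lowest of its group in 9 members and the highest in 19. Any 1 of 3 libraries is often at an end, and these places were not counted over all genes. The 9 had a median exon length of 6453 bases and the 19 one of 3139 bases. Across the 34 members, the log2 ratio of that library to the mean of DEL-1-Fc replicates 2 and 3 had a Spearman correlation with exon length of -0.617, and across 14733 tested genes of -0.285. All points of either value share the same 3 libraries, and genes are not independent replicates. The log2 fold change itself had a correlation with exon length of -0.428 over the 34 members and -0.146 over 14757 tested genes. Over the members it was -0.105 when DEL-1-Fc replicate 1 was left out.

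**Figure D4:**
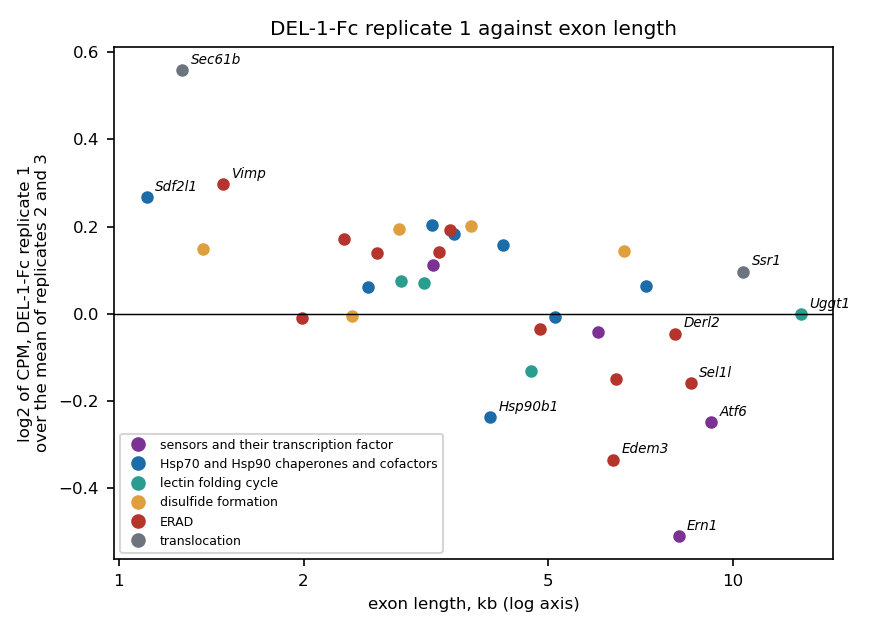
Log2 of the CPM in DEL-1-Fc replicate 1 over the mean of DEL-1-Fc replicates 2 and 3 (vertical axis) against exon length in kb (log axis) for the 34 genes, coloured by role. Short genes such as Sec61b lie above 0 and several long ones such as Ern1 and Atf6 below it.

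The number of calls among the members depended on this library. Without DEL-1-Fc replicate 1, 11 members were called lower (32.4%), beside 9.98% of all genes in that fit, and 1 was called higher, Derl3, beside 9.76%. Calls in either direction made up 19.7% of all genes there. The 11 were Atf6, Hspa5, Hsp90b1, Hyou1, Manf, Uggt1, Edem1, Edem3, Syvn1, Os9 and Vimp. Their log2 fold changes in that fit were modest, from -0.38 in Edem1 to -0.15 in Os9, with Manf at -0.26 (adjusted p = 0.00498), Hspa5 at -0.19 (0.0487) and Hsp90b1 at -0.17 (0.0472). Over all settings the adjusted p of Manf ran from 0.00498 to 0.312, of Hspa5 from 0.0487 to 0.539 and of Hsp90b1 from 0.0256 to 0.254. The median of the members was then -0.10, and 28 of 34 lay below 0. With each library's trend over exon length taken out, a setting chosen after the data were seen, 5 were called lower (Atf6, Manf, Edem1, Edem3 and Syvn1) and Derl3 higher. Calls over all genes rose in that setting too, to 7.54% lower and 7.66% higher. The part of depth or RNA quality in the difference between these libraries was not tested.

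Summed over roles, the 34 members made up 0.816% in Fc and 0.76% in DEL-1-Fc of the scaled library totals used for CPM. These are not shares of the raw reads. The sum was 8189, 8080 and 8200 CPM under Fc against 7772, 7374 and 7647 CPM under DEL-1-Fc. The 11 ERAD genes summed to 1034, 1039 and 1037 CPM under Fc against 908, 905 and 898 CPM under DEL-1-Fc, a narrow range within each group, and without Edem1 to 763 ± 6.17 and 701 ± 15.9 CPM (SD, n = 3). The Hsp70 and Hsp90 group summed to 2440 ± 30.6 CPM in Fc and 2183 ± 74.5 CPM in DEL-1-Fc (SD, n = 3), whereas disulfide formation stood at 924 ± 31.1 and 918 ± 63.7 CPM. These sums are given as descriptions, since abundant members such as Calr and Edem1 weigh most in them.

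Levels of different genes were compared roughly, per kilobase of exon. Exon length here merges all annotated exons of a gene, so it can exceed that of the transcripts expressed. On this scale the members spanned from 481 CPM per kb for Calr to 0.697 CPM per kb for Derl3 in Fc. Calr lay above 99.6% of tested genes. After Calr came Pdia3 (277), Hsp90b1 (198 ± 2.46), Hspa5 (196 ± 4.9), P4hb (162) and Canx (148), and of these neighbours Hsp90b1 and Hspa5 overlapped in their Fc libraries. Xbp1 followed at 73.2 CPM per kb, far above the sensors Atf6 (4.31), Eif2ak3 (4.25) and Ern1 (1.36), of which Atf6 and Eif2ak3 overlapped. In DEL-1-Fc the first 6 were the same genes with Hspa5 (179 ± 14) and Hsp90b1 (166 ± 16.5) in exchanged order (SD, n = 3). Edem1 went from rank 15 (42.3 CPM per kb) to rank 19 (31.3 CPM per kb).

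**Figure D5:**
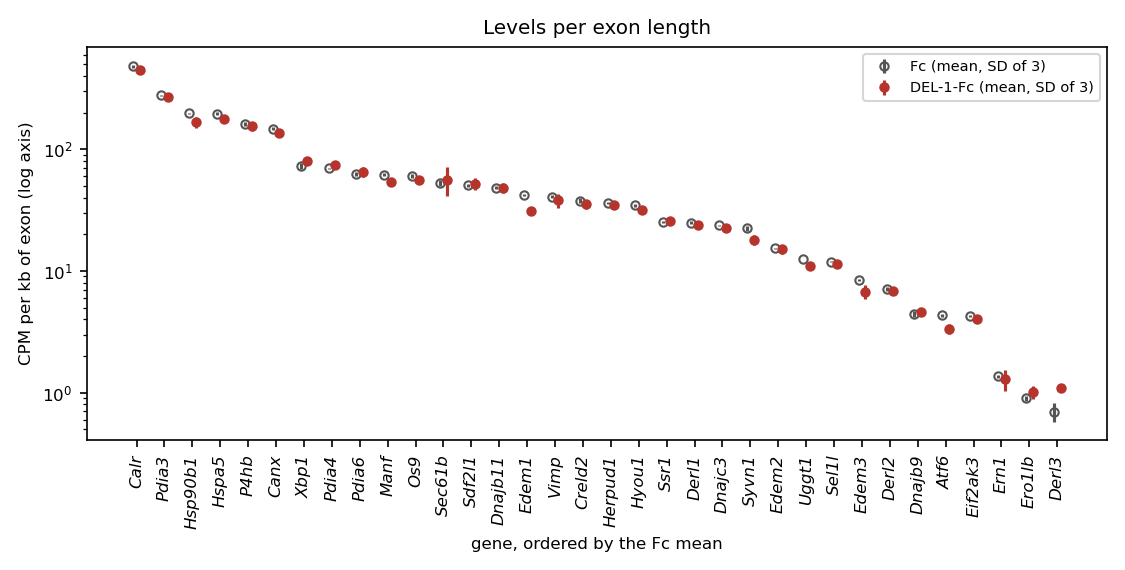
CPM per kb of exon (vertical log axis) of the 34 genes in order of their Fc mean; open grey points are Fc and red points DEL-1-Fc, with bars for the SD of 3 libraries. The order runs from Calr at 481 to Derl3 at 0.697 CPM per kb in Fc.

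The 10 members with an ERSE had 1 call in each direction, Derl3 higher and Syvn1 lower, and a median log2 fold change of -0.10. The 20 members with a promoter and no ERSE had 1, Edem1, lower, and a median of -0.06. Their ranges overlapped, from -0.32 to 0.65 and from -0.43 to 0.14. Among the members without an ERSE, the windows of Dnajb9, Pdia3 and Uggt1 and 1 of Derl2 lay wholly in GENCODE exons (250 of 250 bases). No ERSE here means none in the window searched. Of the 35 genes in the table with an ERSE, 28 were matched to the files. Besides the 10 members, 7 of these were tested and 0 were called by edgeR, with 1 at an unadjusted p under 0.05.

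The rest of the ER pathway was followed in lists of 136 further genes, 133 of them tested. There, 3 were called higher and 14 lower (12.8%, again near the 12.6% of all genes), with a median log2 fold change of -0.05. By list, the share called was 11.1% for other oxidoreductases and chaperones, 8% for other ERAD and 14.3% for the translocon list. It was 7.69% for N-glycosylation and 10.5% for ER exit. Regulators beyond the sensors stood at 33.3%, with 0 higher and 5 lower of 15. Atf4, the factor translated when eIF2α is phosphorylated, measured 518, 502 and 500 CPM under Fc against 367, 358 and 364 CPM under DEL-1-Fc and fell 1.4-fold, a log2 fold change of -0.48 with an SE of 0.0591 (adjusted p = 0.00109). Ppp1r15a, which reverses that phosphorylation (-0.42, SE 0.0671), Nfe2l1, an ER-anchored factor for proteasome genes (-0.34, SE 0.0562), and Trib3, a pseudokinase target of ATF4 (-0.64, SE 0.16), fell too. Ddit3, encoding CHOP and named after its values were seen, did not pass, at 13.2 CPM in Fc and 12.8 CPM in DEL-1-Fc (-0.04, adjusted p = 0.756).

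Among the other oxidoreductases and chaperones, 1 rose and 2 fell of 27 tested. Ero1l, the main oxidase partner of protein disulfide isomerase and the paralogue of Ero1lb, fell 1.39-fold from 213 ± 5.86 CPM to 153 ± 11.8 CPM (SD over 3 libraries each; log2 fold change -0.48, adjusted p = 0.00276). Erp44, which retains Ero1 proteins in the cell, fell (-0.27, adjusted p = 0.0207), and the J-domain gene Dnajb14 rose (0.44, adjusted p = 0.026). Other ERAD genes had 1 higher and 1 lower of 25: Ngly1, which strips glycans from retrotranslocated proteins (0.34, adjusted p = 0.0198), and Nploc4, a p97 cofactor (-0.24, adjusted p = 0.0255).

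Of 21 tested genes of the translocon, signal peptidase and signal recognition particle, 1 rose and 2 fell. Sec11c, a signal peptidase subunit, rose from 72.3 ± 2.94 CPM to 94.8 ± 6.31 CPM (SD over 3 libraries each; log2 fold change 0.39, adjusted p = 0.00667), while Sec63, which couples BiP to the channel (-0.33, adjusted p = 0.00602), and Ssr3 (-0.22, adjusted p = 0.0422) fell. N-glycosylation had 0 higher and 2 lower of 26: Gfpt1, which opens the hexosamine pathway (-0.45, adjusted p = 0.00731), and Alg2, a mannosyltransferase (-0.37, adjusted p = 0.0146). For ER exit, 0 rose and 2 fell of 19: Tfg, which organises exit sites (-0.27, adjusted p = 0.0187), and the coat protein gene Sec23b (-0.22, adjusted p = 0.029).

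Outside the ER, the cytosolic and mitochondrial heat shock list had 0 higher and 3 lower of 17 genes, with a median log2 fold change of -0.13. That is 17.6% called, beside 12.6% of all genes tested. Hspa1b, an inducible Hsp70 gene, measured 8.14, 5.16 and 6.39 CPM under Fc against 2.99, 2.21 and 2.63 CPM under DEL-1-Fc and fell 2.52-fold (adjusted p = 0.00229). Hspa1a, its near-identical copy, fell as well (log2 fold change -1.30, edgeR adjusted p = 0.038), but at a very low level. Hspa1a measured 0.67, 0.571 and 0.455 CPM under Fc against 0.366, 0.159 and 0.202 CPM under DEL-1-Fc. How reads were divided between the copies is uncertain. Hsp90aa1, the stress-induced cytosolic Hsp90, fell from 1701 ± 47.7 to 1374 ± 69.7 CPM (SD, n = 3; -0.31, adjusted p = 0.0241).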

How the data were processed

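Gene expression was measured by polyA RNA sequencing in 3 DEL-1-Fc and 3 Fc libraries. Each deposited file lists unnormalized whole-number counts by gene, which the authors made with STAR (no version given) and HTSeq 0.6.0 on GRCm38 (mm10), per the submitters' processing notes; how strand and multi-mapping reads were handled, and which annotation release was used, is not given in the sources used here. Groups came from the titles and treatment labels. Symbols, coordinates and exon lengths came from GENCODE M21, which matched 37693 of 39179 identifiers, all 34 members included, Vimp through the synonym Selenos. Promoter sequences are RefSeq's (GRCm38.p6).

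Counts were tested in R 4.3.3 with edgeR 4.0.16: filterByExpr by group (minimum count 10, minimum total 15), TMM scaling, and quasi-likelihood tests (robust estimation) over all 14928 genes kept, with Benjamini-Hochberg adjustment over them and calls at 0.05. The biological coefficient of variation common to all genes came to 14.4%. CPM uses TMM-scaled totals over tested genes, and intervals are 95%. A count of 0 allows up to 3 counts, for counting error only. Replicates within a group differed beyond counting noise (chi-square per degree of freedom at least 19.9). The scripts were tested on simulated counts.

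The members, lists and motifs were chosen with earlier results of these data known. Named were all members, up to 4 called genes with the smallest p of each pathway list, and Foxp3. Outside this rule stand Ddit3 and the values of single marker genes, with tests given for Cd8a, Irf4 and Ighm. Alternatives were DESeq2 1.42.0, limma-voom (limma 3.58.1), scaling by RLE, by the upper quartile or by library size alone, a filter of 5 CPM in 3 libraries or none, estimation without the robust option, the replicate block and each library left out. Removal of a length trend was added after seeing the data. Protein features of the members were not analysed here.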

Additional observations from a re-analysis of the deposited data

How the results depend on the processing

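Edem1 kept its direction and call in all 16 settings; Atf6, Syvn1 and Derl3 kept their direction in each setting where they were tested. Members called lower numbered 3, and 6 with DESeq2, 5 with the length trend removed, and 1 to 11 when a library was left out (11 without DEL-1-Fc replicate 1; 1 without any one Fc replicate or DEL-1-Fc replicate 3). Members called higher numbered 1, and 0 with a filter of 5 CPM in 3 libraries, which drops Derl3, 0 with the replicate block, and 0 to 1 when a library was left out. Further ER genes called higher numbered 3, and 5 with library sizes alone, 6 with the length trend removed and 1 to 6 with a library left out; those called lower numbered 14, and 6 to 27. All genes called higher numbered 956 (1187 with DESeq2, 1144 with the length trend removed, 428 to 1485 with a library left out) and lower 928 (1242, 1125, and 466 to 1518), so DESeq2 and the removal of the length trend raised calls over all genes as well as among the members. The median of the members stayed below 0 throughout, from -0.10 to -0.04. The cause of these shifts was not tested, beyond the loss of Derl3 to the stricter filter.

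No gene that changed sign was called in either setting. Dnajb11 gave 0.0127 with library sizes alone, and Sdf2l1 gave -0.0198 with the length trend removed. With a library left out, the ranges were -0.1873 to 0.0751 for Ern1, -0.0834 to 0.0536 for Dnajb11, -0.0452 to 0.1013 for Sdf2l1, -0.0654 to 0.0001 for Pdia3, -0.0136 to 0.1177 for Pdia6, -0.0962 to 0.0131 for Edem2, -0.1223 to 0.2628 for Sec61b and -0.0121 to 0.0527 for Ssr1. The labels do not say that a shared number marks a shared source, and pairing was not established: the deviations of same-numbered libraries correlated weakly, at 0.0163, 0.0885 and 0.0425. DEL-1-Fc replicates 2 and 3 correlated best with their own number and replicate 1 with Fc replicate 3 (0.0382). The replicate block ended only the Derl3 call among the members (adjusted p = 0.0741). The lowest member count was 64 reads, in Derl3, and for scarce members such as Derl3, Ero1lb, Ern1 and Dnajb9 counting error limits the precision along with the spread between libraries.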
